A study of Macaca fascicularis with 6 samples.

Results

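AP-1 is a family of transcription factors that bind DNA as pairs of leucine zipper proteins, and its transcripts were followed here across the cell types of the cynomolgus monkey lung in control animals and in an asthma model. The members were fixed by gene symbol as FOS, FOSB, FOSL1, FOSL2, JUN, JUNB, JUND, ATF3 and BATF. Of these 9 symbols, 8 had a row among the 28623 genes of the count tables. JUN had no row of that symbol and was not analysed here.

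A FOS protein pairs with a JUN protein, and the pair binds a short palindromic DNA element in promoters and enhancers. FOS and FOSB are immediate early genes, which cells transcribe within minutes of a growth factor, cytokine or stress signal carried by MAP kinases and the serum response factor. FOSL1 and FOSL2 usually follow more slowly, JUNB and JUND differ from JUN in how strongly they activate, ATF3 is a stress-induced factor that often represses, and BATF pairs with JUN proteins in lymphocytes. In the airway, AP-1 is known for driving cytokine, protease and remodelling genes.

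Single-cell RNA was read from 1 lung sample from each of 6 male cynomolgus monkeys (Macaca fascicularis) aged 3 to 5 years. The 3 asthma animals (numbered 8, 10 and 11 in the labels) were sensitized with an extract of the roundworm Ascaris suum at 1 mg/mL and challenged with it at 10 mg/mL, and the 3 controls (numbered 1, 2 and 3) were given saline. The paper describes the sensitizing antigen as mixed with adjuvant and mentions only saline for controls, so adjuvant and antigen cannot be told apart. Lungs were collected at week 11, and each animal gave 1 library made with droplet 3′ chemistry that counts transcripts by unique molecular identifiers (UMIs). According to the paper, collection came after a test of airway reactivity to methacholine, whose part in the values below was not tested. The model is an allergen response with no named genetic change, and all lungs of both groups went through the same enzymatic dissociation of 20 min at 37 °C.

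After filtering, 24235 of 35133 barcodes were kept, 11441 from control and 12794 from asthma lungs. The count tables held 40556102, 33210436 and 32240293 UMIs in controls 1, 2 and 3, and 41184329, 41489879 and 29014556 UMIs in asthma animals 8, 10 and 11. Any 2 libraries shared between 1 and 11 barcodes. Clustering and marker lists gave 21072 cells a name in 11 classes, so "granulocytes" below stands for granulocyte-like cells by their markers. The largest class was T and NK cells with 10147 cells (led by CD3D, CD3E and GNLY), followed by macrophages with 3372 (C1QA, MARCO and FABP4) and granulocytes with 1561 (CSF3R and CXCR1). A further 1670 cells lay in sub-clusters that met a marker rule for another class more than for their own, called mixed below, and were left out, and 1493 cells stayed unnamed. The leading genes of most mixed sub-clusters were markers of another class, but 72 cells first grouped as macrophages were led by CXCL11, IDO1 and SPP1 and 60 first grouped as dendritic cells by PTCRA, BCAS4 and GZMB.

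Single libraries stood apart for some of these genes. Asthma 11 had the lowest FOS and FOSB levels in 6 of 10 classes each and the lowest ATF3 level in 6 of 9, but the lowest FOSL2 level in only 2 of 10 and the lowest JUNB level in 1 of 10. Asthma 10 had the highest FOS level in 5 of 10 classes. Asthma 11 also had the lowest summed level of the other early-response genes in 6 of 10 classes and of the heat shock genes in 6 of 10. Control 1 had the highest summed heat shock level in 8 of 10 classes. Fresh-tissue dissociation is known to induce early-response and heat shock genes, and its part in the values below was not tested. Levels are given as CPM, the UMIs of a gene per 1e+06 UMIs of that class in that library. Because 3′ counting does not scale with gene length and differs in capture between genes, single-gene levels were compared between classes within a gene.

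FOS, the founding partner of the family, was highest in granulocytes. Its level there was 8211, 8563 and 10122 CPM in controls 1, 2 and 3 and 8152, 11567 and 9781 CPM in asthma animals 8, 10 and 11, a mean of 9399 ± 1344 (SD, n = 6). The 2 groups overlapped, and every granulocyte value was above the highest value of any other class. Monocytes followed at 3685 ± 1131 CPM, T and NK cells at 2687 ± 709 and B cells at 2246 ± 821 (SD, n = 6 each). Each of these 3 steps down was seen in 6 of 6 libraries. From B cells down to endothelial cells, at 1530 ± 1080 CPM, no step between neighbours was seen in more than 4 of 6 libraries. The order of classes was set by these same values, so its steps are described, here and for the other members, with no test.

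The share of cells with a FOS transcript put granulocytes and monocytes at the top as well. With every cell thinned to 1000 UMIs, 98.1% of granulocytes, 91.9% of monocytes and 45.0% of endothelial cells had at least 1 FOS UMI (means over 6 libraries). Thinning left out 756 granulocytes. The median depth of all granulocytes, before thinning, was 942.5 to 1071.5 UMIs per cell in each library, against 14037 to 25500 in macrophages. No class could serve as a class without FOS, so its level in free RNA was not measured.

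**Figure D1:**
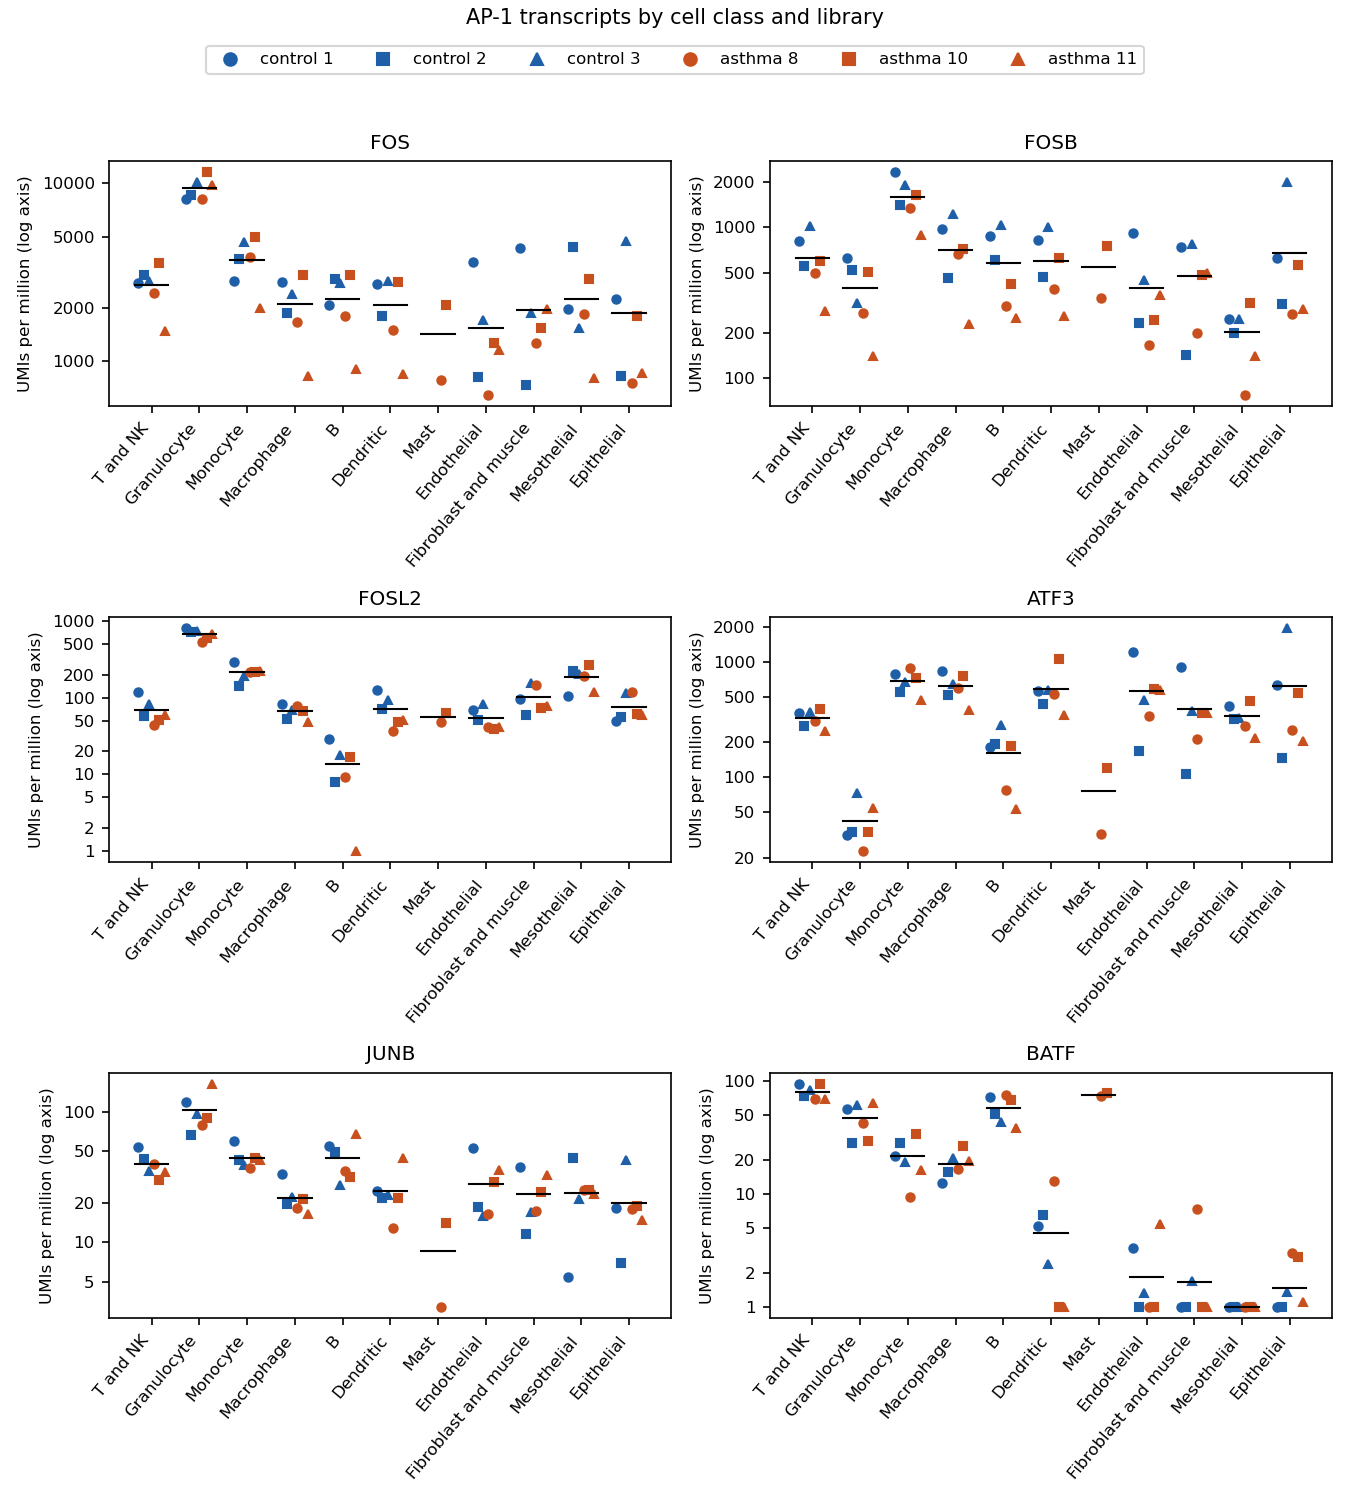
Level of 6 AP-1 members in each class and library, in CPM on a log axis, with control animals in blue, asthma animals in orange and the mean over libraries as a black line; values under 1 are drawn at 1. FOS and FOSL2 peaked in granulocytes, FOSB in monocytes, and BATF in T and NK cells, while ATF3 was lowest in granulocytes.

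FOSB, the close paralogue of FOS, peaked in monocytes rather than granulocytes. Its level in monocytes was 2323, 1400 and 1920 CPM in controls and 1340, 1645 and 894 CPM in asthma animals 8, 10 and 11 (mean 1587 ± 497, SD, n = 6). Control 1 was the highest and asthma 11 the lowest, and the groups overlapped. Macrophages came next at 713 ± 354 CPM, lower than monocytes in 6 of 6 libraries, and mesothelial cells were lowest at 204 ± 84.5 CPM. Granulocytes, first for FOS, stood at 397 ± 183 CPM for FOSB. Thinned to 1000 UMIs, 75.2% of monocytes and 14.3% of mesothelial cells had a FOSB UMI.

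ATF3, the stress-induced member, was lowest where FOS was highest. Monocytes led with 779, 543 and 663 CPM in controls and 879, 717 and 470 CPM in asthma animals 8, 10 and 11 (mean 675 ± 151, SD, n = 6), with overlapping groups. Epithelial cells at 622 ± 681 CPM and macrophages at 620 ± 161 followed, with the first step seen in 5 of 6 libraries and the second in 1 of 6. The epithelial mean rested on control 3, at 1957 CPM, while the other 5 libraries lay between 147 and 625. Granulocytes were at 41.4 ± 18.6 CPM, and 3.66% of them had an ATF3 UMI at 1000 UMIs per cell against 41.9% of monocytes.

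FOSL2, which is known from osteoclasts, adipocytes and Th17 cells as well as lung, was also highest in granulocytes. Its level was 804, 727 and 739 CPM in controls and 536, 593 and 669 CPM in asthma animals 8, 10 and 11 (mean 678 ± 99.6, SD, n = 6). All 3 asthma values lay under all 3 control values. The step to monocytes, at 212 ± 47.4 CPM, and the steps from mesothelial cells (183 ± 61.9) to fibroblasts and muscle (101 ± 40.3), from there to epithelial cells (76.3 ± 31.6) and from endothelial cells (54.2 ± 17.9) to B cells (13.4 ± 9.95) were seen in 6 of 6 libraries each. FOSL1, a paralogue known from basal epithelium and wound repair, was scarce: its highest mean was 12.3 ± 10.2 CPM in granulocytes, with no UMI in asthma 8 or 11. In 1226 fibroblasts and muscle cells deep enough to thin, 0 had a FOSL1 UMI, which allows up to 0.245% of such cells to have a UMI at that depth. Limits of this kind cover counting error only and do not bound the share of cells that express the gene.

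The JUN side of the family was represented by JUNB and JUND. JUNB, induced with FOS in many cells, was highest in granulocytes with 119, 66.8 and 97.0 CPM in controls and 80.4, 90.6 and 164 CPM in asthma animals 8, 10 and 11 (mean 103 ± 34.6, SD, n = 6). The groups overlapped, and B cells, next at 44.6 ± 15.7 CPM, were lower in 6 of 6 libraries. JUND, usually the constitutive member, was highest in T and NK cells with 30.4, 27.8 and 31.8 CPM in controls and 27.2, 23.9 and 16.3 CPM in asthma animals 8, 10 and 11 (mean 26.2 ± 5.59, SD, n = 6). All 3 asthma values lay under all 3 control values. No step between neighbouring classes was seen for JUND in more than 4 of 6 libraries, except the lowest. That step, from macrophages to mesothelial cells, was seen in every library but asthma 8 (6.67 against 8.71 CPM). Mast cells lay between them at 6.40 CPM but had a value in only 2 libraries, and are left out of this order. Mesothelial cells had 0, 1 and 0 JUND UMIs in controls 1, 2 and 3, so the step there is near the floor.

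BATF, which cooperates with interferon regulatory factors in T and B cells, followed the lymphoid classes. T and NK cells had 93.2, 73.3 and 82.0 CPM in controls and 69.1, 92.7 and 69.1 CPM in asthma animals 8, 10 and 11 (mean 79.9 ± 11.2, SD, n = 6), and the groups overlapped. B cells had 57.4 ± 15.6 CPM and granulocytes 46.8 ± 15.7, while mast cells, with enough cells in only 2 libraries, had 73.6 CPM in asthma 8 and 77.1 CPM in asthma 10. Mesothelial cells had no BATF UMI in any library. At 1000 UMIs per cell, 7.20% of T and NK cells had a BATF UMI against 0 of 425 mesothelial cells, which allows up to 0.706% of them to have a UMI at that depth. The median depth before thinning was 3251 to 4484 UMIs in T and NK cells and 6272 to 10071 in mesothelial cells.

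Subtypes named from finer markers also differed within classes. Regulatory T cells had a BATF level of 552 CPM in control 1, 570 in control 2 and 704 in asthma 10, the 3 libraries with at least 10 such cells (mean 609 ± 83.2, SD, n = 3). CD4 T cells had 120 ± 19.5 CPM and NK cells 56.1 ± 9.12 (SD, n = 6 each), so every regulatory T value lay above every CD4 T and NK value. In the alveolar epithelium, alveolar type 1 cells had FOSL2 levels of 140 CPM in control 1 and of 235, 298 and 234 in asthma animals 8, 10 and 11 (mean 227 ± 65.3, SD, n = 4), against 24.8 ± 9.35 CPM in type 2 cells (SD, n = 6). The ranges of type 1 cells, which form the gas exchange surface, and type 2 cells, which make surfactant, did not overlap.

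FOS split the same classes in other ways. Basal cells, the airway progenitors, had 4579 ± 1998 CPM of FOS (SD, n = 5), type 2 cells 1037 ± 620 (SD, n = 6) and type 1 cells 379 ± 237 (SD, n = 4). ATF3 was likewise 1877 ± 1206 CPM in basal cells and 101 ± 64.3 CPM in type 1 cells. These means pool the groups in unequal numbers, with 2 control and 3 asthma libraries for basal cells and 1 control and 3 asthma libraries for type 1 cells. Among fibroblasts and muscle, alveolar myofibroblasts had 8276 and 4074 CPM of FOS in controls 1 and 3 and 2526 CPM in asthma 11. Their value in control 1 lay above that of granulocytes in the same library (8211 CPM). Macrophage subtypes are not compared, because a sub-cluster of 335 cells in that class was led by CCL17, STAB1 and CLEC10A, which include dendritic cell markers. Because the cells were clustered on their expression, although not on these genes, these subtype differences are given as descriptions with no test.

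**Figure D2:**
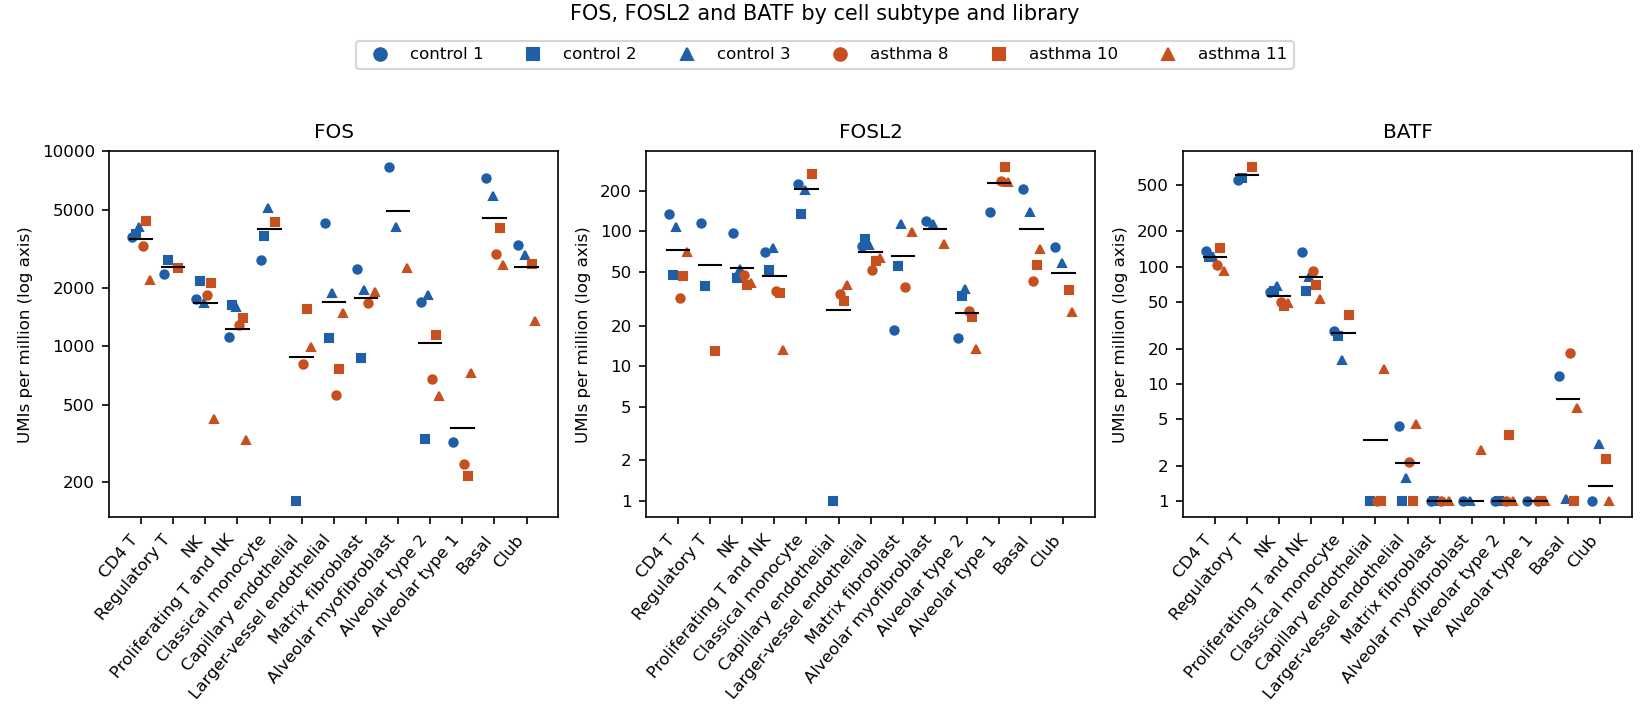
FOS, FOSL2 and BATF in cell subtypes, in CPM on a log axis, for libraries with at least 10 cells of the subtype (blue control, orange asthma, black line the mean; values under 1 drawn at 1). Regulatory T cells stood at 552 to 704 CPM of BATF, and alveolar type 1 cells at 140 to 298 CPM of FOSL2 against 24.8 on average in type 2 cells.

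The genes whose level moved most like each member were found over 62 class-by-library profiles and 7695 genes, as Pearson correlations of log2(CPM + 10). These profiles share libraries and the correlations are descriptions. FOS was closest to DUSP1 (r = 0.86), a MAP kinase phosphatase, ZFP36 (0.78), a decay factor for AU-rich mRNAs, and CSRNP1 (0.77). FOSB was closest to KLF6 (0.72), PPP1R15A (0.67) and VMP1 (0.64), and ATF3 to ANXA2 (0.80), SSR3 (0.75) and PRDX3 (0.72). FOSL2 was closest to DOCK5 (0.85), MED25 (0.85) and GABARAPL1 (0.83), and the scarce FOSL1 to NAIP (0.73), NAMPT (0.73) and PELI1 (0.72). JUNB was closest to GZF1 (0.81), YPEL5 (0.80) and PNRC1 (0.80), and JUND to SS18L2 (0.78), ZBTB8OS (0.71) and RBM38 (0.71). BATF was closest to RAB37 (0.90), RAC2 (0.87), a GTPase of blood cells, and ARHGAP15 (0.86). Between members, FOS and JUNB were the most alike (r = 0.72) and ATF3 and BATF the least (r = -0.44).

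The comparison of asthma with control asked whether AP-1 transcripts differed between the groups within each class. Members passed the low-count filter in 59 member-by-class tests over 10 classes, with mast cells left out for want of libraries, and 49 estimates were lower and 10 higher in asthma. Only 1 of the 59 was called, FOSL2 in endothelial cells (edgeR quasi-likelihood test, Benjamini-Hochberg adjusted p under 0.05 and a log2 fold change beyond 0.25 in size). FOSB was lower in 10 of 10 classes, by log2 fold changes from -1.43 to -0.44, and FOS in 9 of 10, from -1.23 to 0.14. JUND was lower in 6 of 6 classes tested, FOSL2 in 8 of 10, ATF3 in 7 of 9, JUNB in 6 of 9 and BATF in 3 of 5. FOSL1 passed the filter in no class. The classes share animals, so the 59 estimates are not independent, and the split was 42 lower and 17 higher without control 1 and 47 lower and 12 higher without asthma 11.

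The share of all tested genes that were called was 0% in T and NK cells, 0% in granulocytes, 0.015% in monocytes, 0% in macrophages, 0.0158% in B cells, 0% in dendritic cells, 5.63% in endothelial cells, 0.343% in fibroblasts and muscle, 0.0206% in mesothelial cells and 0% in epithelial cells. In the classes with a count of 0 from edgeR, the unadjusted p was under 0.05 for 725 of 10456 genes in T and NK cells, 101 of 2891 in granulocytes, 579 of 10512 in macrophages, 373 of 5482 in dendritic cells and 648 of 9065 in epithelial cells, and DESeq2 called 80, 2, 34, 16 and 4 genes there. In the classes with calls, the unadjusted edgeR p was under 0.05 for 1796 of 7782 genes in endothelial cells and 763 of 7296 in fibroblasts and muscle. It was under 0.05 for 311 of 6674 in monocytes, 380 of 6314 in B cells and 268 of 4843 in mesothelial cells. Among the members, 12 of the 59 tests had an unadjusted edgeR p under 0.05, 3 of them in endothelial cells. DESeq2 called 1 member, FOSB in B cells. The median log2 fold change of the members was -0.38 in T and NK cells, -0.44 in macrophages, -0.46 in B cells, -0.49 in dendritic cells, -0.77 in endothelial cells, -0.67 in fibroblasts and muscle, -0.33 in mesothelial cells and -0.93 in epithelial cells, and near 0 in granulocytes (-0.0030) and monocytes (-0.09). The median over all tested genes lay between -0.02 and 0.02 in every class.

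**Figure D3:**
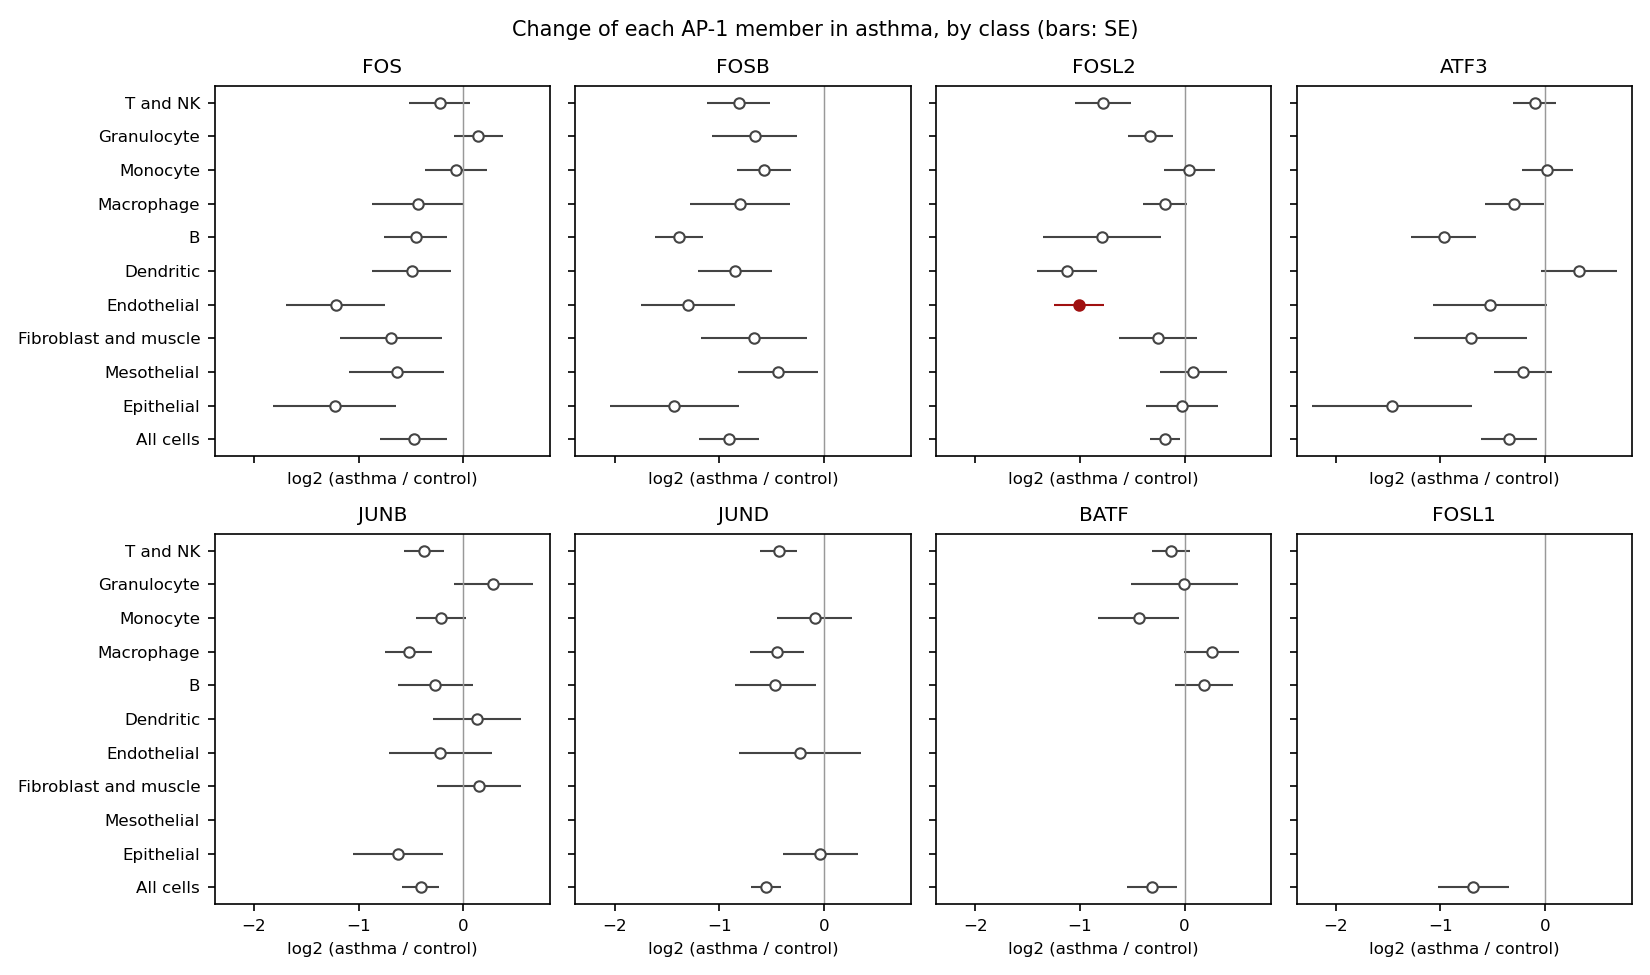
Log2 fold change of each AP-1 member, asthma over control, in each class and over all kept cells (points are edgeR estimates, bars their standard errors, filled red where called; no point where the gene did not pass the low-count filter). Most points lie left of 0, FOSB in every class, and only FOSL2 in endothelial cells was called.

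On CPM scaled by edgeR's trimmed means (TMM), the groups did not overlap in 6 of the 59 tests, all lower in asthma: JUND in T and NK cells, FOSL2 in granulocytes, dendritic cells and endothelial cells, and FOSB and ATF3 in B cells. In the unscaled CPM printed elsewhere, ATF3 in B cells did overlap, with asthma 10 at 187 CPM above control 1 at 183, which leaves 5. Among all tested genes, on the TMM scale, the groups did not overlap for 12% in T and NK cells, 8.2% in granulocytes, 10.5% in monocytes, 11.3% in macrophages, 11.5% in B cells, 12.9% in dendritic cells, 27.5% in endothelial cells, 16.8% in fibroblasts and muscle, 11.4% in mesothelial cells and 13.6% in epithelial cells. The members' share on that scale was 10.2%, no higher than in most of these classes.

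In endothelial cells, which line the vessels, FOSL2 was 69.2, 51.2 and 82.8 CPM in controls 1, 2 and 3 and 41.8, 38.8 and 41.4 CPM in asthma animals 8, 10 and 11. The group means were 67.7 ± 15.8 and 40.7 ± 1.62 CPM (SD, n = 3 each), and every asthma value lay under every control value. FOSL2 fell by 1.01 on the log2 scale (SE 0.24, edgeR adjusted p = 0.041). The counts behind it were small, with 21, 11 and 62 FOSL2 UMIs in 45, 35 and 103 control cells and 43, 36 and 38 UMIs in 257, 235 and 300 asthma cells. The other 5 members tested there were also lower and did not pass the test, among them FOSB at -1.30 (SE 0.45, edgeR adjusted p = 0.119).

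The endothelial call did not hold under several settings. Without the TMM scaling that edgeR applies to library sizes, the log2 fold change was -0.79 (edgeR adjusted p = 0.067), while the median of all genes moved from 0.02 to 0.24, so that FOSL2 lay -1.03 from that median under both scalings. DESeq2 gave -1.002 (adjusted p = 0.092), and keeping the mixed sub-clusters gave -0.71 (edgeR adjusted p = 0.140). Leaving out 1 library gave -1.16 to -0.78 with an edgeR adjusted p up to 0.206, and the call was kept only without control 2. Of 15 settings, the one reported included, 7 called it.

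The make-up of the class moved with the groups. Larger-vessel cells made up 64.4%, 45.7% and 82.5% of the endothelial cells of controls 1, 2 and 3 and 28.8%, 20% and 19.3% of those of asthma animals 8, 10 and 11. Endothelial cells with no subtype name made up 8.9%, 0% and 2.9% in controls and 29.2%, 27.2% and 59.7% in asthma animals. Their pooled share in asthma was 40.2%, the largest, but without asthma 11 it was 28.3%, under the capillary 45.1%. The groups did not overlap in the larger-vessel or the unnamed share, nor in the lymphatic share (8.9% to 20% in controls and 1.3% to 3.3% in asthma animals). They overlapped in the capillary share, at 17.8%, 34.3% and 4.9% in controls and 39.3%, 51.5% and 17.7% in asthma animals. Within larger-vessel cells, FOSL2 was 77.9, 88.0 and 79.9 CPM in controls and 51.6, 60.7 and 63.4 CPM in asthma animals, without overlap. The difference was -0.42 in log2(CPM + 10) (exact two-sided permutation test, p = 0.1, the smallest that 3 against 3 allows). These values rest on 18, 11 and 51 UMIs in controls and 24, 15 and 14 in asthma animals. Those UMIs are part of the class counts behind the call, and most of them in controls, so they are not a second observation. FOSB in larger-vessel cells did not overlap either, at 1095, 280 and 482 CPM in controls and 116, 211 and 217 CPM in asthma animals, while FOS, ATF3 and JUNB did. The groups did not overlap for 13.5% of the 7714 genes with a mean of at least 10 CPM in those cells. Capillary cells had 34.4, 30.2 and 39.9 CPM in asthma animals and no FOSL2 UMI in the 12 cells of control 2, the only control library with enough of them, where 3 UMIs would be 121 CPM, so that its 0 gives no direction. In lymphatic cells FOSL2 stood at 92.7 CPM in control 3 and at 112 in asthma 11. The part of this shift in the call was not tested.

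**Figure D4:**
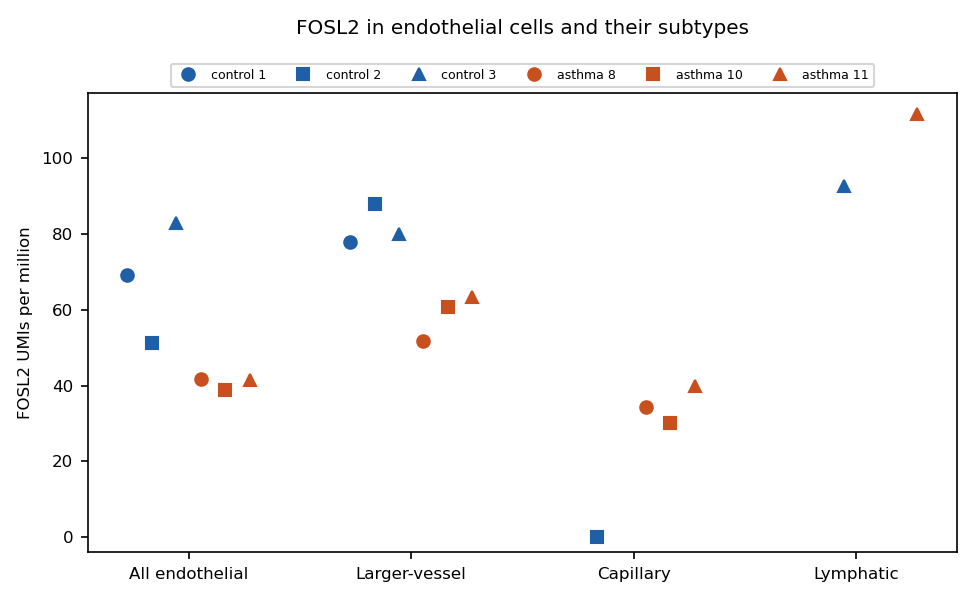
FOSL2 level in CPM in all endothelial cells and in their larger-vessel, capillary and lymphatic subtypes, 1 point per library with at least 10 cells (blue control, orange asthma). Asthma libraries lay under control libraries in the whole class (38.8 to 41.8 against 51.2 to 82.8) and in larger-vessel cells (51.6 to 63.4 against 77.9 to 88.0).

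FOSB in B cells, named after its values were seen, was the member closest to a further call. Its level was 873, 612 and 1032 CPM in controls and 301, 422 and 250 CPM in asthma animals 8, 10 and 11, a log2 fold change of -1.38 (SE 0.22). Its edgeR quasi-likelihood p was 2.09e-05 and its adjusted p 0.066. The groups lay well apart, but asthma 11 gave only 30 B cells. Of 15 settings 4 called it, among them DESeq2 (adjusted p = 6.84e-05) and leaving out control 2 or asthma 10, while keeping the mixed sub-clusters gave -0.86 (edgeR adjusted p = 0.946).

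The largest estimates of most other members fell in epithelial cells and did not pass the test. FOS there was 2236, 831 and 4716 CPM in controls and 759, 1788 and 855 CPM in asthma animals 8, 10 and 11 (log2 -1.23, SE 0.59, edgeR adjusted p = 0.658). ATF3 was 625, 147 and 1957 CPM in controls and 258, 538 and 208 CPM in asthma animals (log2 -1.46, edgeR adjusted p = 0.667), with control 3 far above the rest for both genes. FOSB was 629, 309 and 2011 CPM in controls and 265, 559 and 286 CPM in asthma animals (log2 -1.43, edgeR adjusted p = 0.658). JUNB was 18.3, 7.02 and 42.6 CPM in controls and 17.9, 19.0 and 14.9 CPM in asthma animals (log2 -0.62, edgeR adjusted p = 0.731). In all 4 genes control 3 was the highest library but control 2 lay under asthma 10, so the groups overlapped. Without control 3 the log2 fold changes shrank to -0.64 for FOS, -0.46 for ATF3, -0.55 for FOSB and -0.048 for JUNB. Control 3 also stood apart in make-up. Basal cells, which were high in FOS and ATF3, made up 69.9% of its epithelial cells, against 6.8% and 9.1% in controls 1 and 2 and 8.1%, 12.9% and 6.8% in asthma animals 8, 10 and 11. Pooled, the basal share was 35% in control and 9.0% in asthma lungs, and without control 3 the control share was 7.2%, below that of asthma. Type 1 cells, which were low in both genes, made up 11.6%, 15.2% and 3.5% in controls and 61.3%, 20.4% and 39.4% in asthma animals, without overlap. Within basal cells, FOS was 7315 and 5920 CPM in controls 1 and 3 and 2991, 4063 and 2606 CPM in asthma animals 8, 10 and 11, from 10 and 100 control cells and 14, 24 and 17 asthma cells. ATF3 there was 3606 and 2559 CPM in those controls and 917, 1589 and 712 CPM in asthma animals. Every asthma value lay under both control values for each gene. The share of all genes that lie apart in basal cells was not measured, so nothing is read from this. Control 2 had too few basal cells for a value. Neither the difference within basal cells nor the part of the make-up in the class values was tested. Of the cells first grouped as epithelial, 35.8% in control and 10.5% in asthma lungs lay in mixed sub-clusters and were left out.

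The remaining largest estimates were also below the threshold. FOSL2 in dendritic cells was 124, 70.0 and 93.3 CPM in controls and 37.2, 48.0 and 51.2 CPM in asthma animals 8, 10 and 11, without overlap (log2 -1.12, SE 0.29, edgeR adjusted p = 0.606). JUND in B cells was 40.5, 17.2 and 26.3 CPM in controls and 19.6, 23.4 and 22.8 CPM in asthma animals, with overlap (log2 -0.46, edgeR adjusted p = 0.910, and log2 -0.035 without control 1). BATF in monocytes was 21.6, 28.3 and 19.1 CPM in controls and 9.36, 34.1 and 16.2 CPM in asthma animals, with overlap (log2 -0.44, edgeR adjusted p = 0.9999, and log2 -0.21 without asthma 11). FOSL1, tested only over all cells, was 1.77, 2.32 and 1.42 CPM in controls and 1.16, 1.51 and 1.10 CPM in asthma animals (log2 -0.69, edgeR adjusted p = 0.456).

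Summed over all kept cells of a library, as a bulk sample would be, 8 of 8 members were lower in asthma and 0 were called by edgeR or DESeq2, with an unadjusted edgeR p under 0.05 for 2 of the 8. In such sums, fewer cells of a type and less RNA per cell cannot be told apart. FOS was 2775, 2588 and 2865 CPM in controls and 1887, 3185 and 1402 CPM in asthma animals 8, 10 and 11 (log2 -0.48, edgeR adjusted p = 0.584), so asthma 10 was the highest of the 6 and asthma 11 the lowest, and without asthma 11 the log2 fold change was -0.23. JUND had a log2 fold change of -0.55 (edgeR adjusted p = 0.238), the only member whose groups did not overlap, and FOSB of -0.91 (edgeR adjusted p = 0.290). Among all genes edgeR called 0.0839% over all cells, 12 of 14306, while DESeq2 called 646 of 21415, and the groups did not overlap for 19.3%. When the 10 classes were weighted equally instead, FOS differed by -0.31 on the log2(CPM + 10) scale, FOSB by -0.78 and BATF by 0.0069 (exact two-sided permutation tests, p = 0.4, 0.2 and 0.9). FOSL2 differed by -0.22 and FOSL1 by -0.24, each with p = 0.1, the smallest that 3 against 3 allows in this exact test. JUNB, JUND and ATF3 differed by -0.02, -0.08 and -0.27 (exact permutation tests, p = 0.9, 0.7 and 0.6).

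The lists around AP-1 were read in the same fits. The other zipper partners, such as DDIT3, ATF4 and BATF3, split evenly at 35 higher and 35 lower of 70 gene-by-class tests, with 0 called by edgeR or DESeq2 and an unadjusted edgeR p under 0.05 in 9. The upstream kinases and serum response factors had 51 higher and 40 lower of 91, with 0 called by edgeR or DESeq2 and an unadjusted edgeR p under 0.05 in 1. Without TMM scaling these became 66 and 25. Other early-response genes had 54 higher and 127 lower of 181 with 3 called (all lower), the dual-specificity phosphatases 15 and 29 of 44 with 1 called (higher), the described AP-1 target genes 38 and 53 of 91 with 4 called (1 higher), and the heat shock genes 18 and 75 of 93 with 3 called (all lower). These splits moved with single libraries. The early-response genes were 79 higher and 102 lower without asthma 11, 74 and 107 without control 1, and 37 and 143 without asthma 10. The heat shock genes stayed at 18 higher and 75 lower without asthma 11, but were 30 and 63 without control 1 and 10 and 82 without control 2. The targets turned to 47 higher and 44 lower without control 1, and the phosphatases were 8 higher and 35 lower without asthma 10.

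All 11 of the called list genes were called in endothelial cells, the class with 438 of 7782 genes called, 194 of them higher and 244 lower. Without TMM scaling these became 445 higher and 152 lower. The 11 calls rested on every library: 1 was left without control 1 (HBEGF), 8 without control 2, 0 without control 3, 6 without asthma 8, 0 without asthma 10 and 2 without asthma 11 (MYC and HBEGF). Larger-vessel cells made up 71.0% of the endothelial cells pooled over controls and 22.6% of those pooled over asthma animals. Median depth was 5611, 5617 and 6901 UMIs per endothelial cell in controls 1, 2 and 3. It was 3244, 3518 and 2633.5 in asthma animals 8, 10 and 11. The part of make-up or depth in the 11 calls was not tested. Of the early-response genes, NR4A1, an orphan nuclear receptor, was 329, 130 and 135 CPM in controls and 64.2, 88.4 and 33.8 CPM in asthma animals 8, 10 and 11 (log2 -1.87, SE 0.43, edgeR adjusted p = 0.040), CCN1, a matrix signalling protein, had a log2 fold change of -1.65 (adjusted p = 0.026) and MYC of -1.54 (adjusted p = 0.016).

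Of the targets called there 3 were lower and 1 higher in asthma, and the 1 called phosphatase was higher. HBEGF, a ligand of the EGF receptor, was 155, 37.2 and 150 CPM in controls and 19.5, 12.9 and 20.7 CPM in asthma animals 8, 10 and 11 (log2 -2.97, SE 0.44, edgeR adjusted p = 0.012). TIMP1, an inhibitor of matrix proteases, had a log2 fold change of -1.62 (edgeR adjusted p = 0.023) and VIM, an intermediate filament, of -1.11 (edgeR adjusted p = 0.030). CD44, the hyaluronan receptor, was 9.88, 37.2 and 17.4 CPM in controls and 61.3, 96.0 and 70.8 CPM in asthma animals (log2 1.74, SE 0.37, edgeR adjusted p = 0.029). DUSP6, a phosphatase of the ERK kinases, was 158, 186 and 96.2 CPM in controls and 448, 288 and 536 CPM in asthma animals (log2 1.37, SE 0.29, edgeR adjusted p = 0.028). The directions of these 5 genes were the same without TMM scaling and with DESeq2, but not every call was kept under the other settings. HBEGF and NR4A1 were not called with the mixed sub-clusters kept, TIMP1 and NR4A1 with doublets removed, and CD44 and VIM at a mitochondrial maximum of 10%.

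The heat shock genes called in endothelial cells were DNAJB4 (log2 -1.69, edgeR adjusted p = 0.039), HSPH1 (log2 -0.95, edgeR adjusted p = 0.041) and HSP90AB1 (log2 -0.71, edgeR adjusted p = 0.047). Without TMM scaling neither HSPH1 (adjusted p = 0.075) nor HSP90AB1 (adjusted p = 0.103) was called by edgeR. Both calls were also lost at a mitochondrial maximum of 10% and with the mixed sub-clusters kept, and HSPH1 with DESeq2. HSP90AB1 was further lost with no filter on low counts, doublets removed, clustering with the listed genes and a resolution of 1.6. All 10 heat shock genes tested in that class were lower in asthma, with a median log2 fold change of -0.70 beside 0.02 for all genes and -0.77 for the 6 AP-1 members. Summed, they stood at 5570 ± 997 CPM in endothelial cells of controls and 4301 ± 379 CPM in those of asthma animals (SD, n = 3 each), and the AP-1 members at 3300 ± 2340 and 1855 ± 547 CPM. Of these AP-1 sums, FOS alone made up 2038 CPM in controls and 1021 CPM in asthma animals. The part of the heat shock level in the AP-1 values was not tested. In the classes with no called gene of a list, the most abundant list gene was named, and DUSP1 in T and NK cells had a log2 fold change of 0.02, ZFP36 in monocytes of -0.02 and VIM in macrophages of -0.13 (edgeR adjusted p = 0.997, 0.9999 and 0.953).

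**Figure D5:**
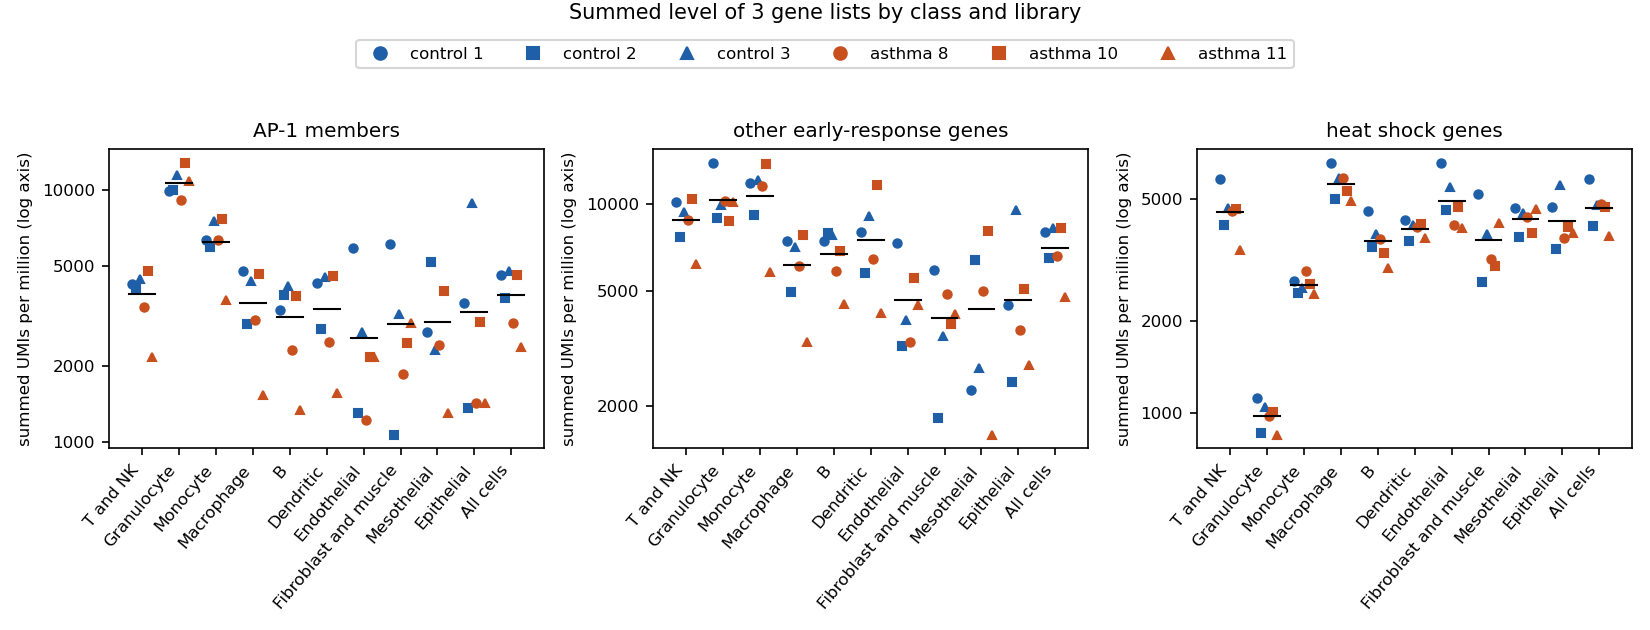
Summed level of the AP-1 members, the other early-response genes and the heat shock genes in each class and over all kept cells, in CPM on a log axis, 1 point per library (blue control, orange asthma, black line the mean). Asthma 11 was the lowest library in 6 of 10 classes for each of the 3 lists, and control 1 the highest for heat shock in 8 of 10. FOS was the most abundant AP-1 member and weighs most in the AP-1 sum.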

How the data were processed

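The deposited count files hold whole-number UMI counts per gene and barcode, made by the authors with Cell Ranger (4.0.0 in the file headers, 2.1.1 in the submitters' processing notes). No normalization had been applied. Barcodes passed with more than 500 but fewer than 5000 genes, a minimum of 500 UMIs and a mitochondrial share no higher than 25%. They were clustered with scanpy 1.11.5 (2000 variable genes without the AP-1 and related lists, 10 components, 20 neighbours, resolution 0.8). Clusters were named from marker lists, the scoring rules being settled after the data had been seen. No doublet was removed in the main fit, and Scrublet's top 793 cells were removed in an alternative (21.2% of the mixed and 1.03% of the named cells).

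Counts were summed per library and class, and classes with at least 10 cells in at least 2 libraries per group were fitted with edgeR 4.0.16 (R 4.3.3, filterByExpr, TMM, quasi-likelihood test, Benjamini-Hochberg over all genes of the class). The step was tested on simulated data with 200 changed genes. In endothelial cells it recovered 0% of log2 changes of 1 and 86% of log2 changes of 2, and in T and NK cells 33% and 92.5%. The real endothelial data had 438 genes called, more than the 200 changed in the simulation, so its rates need not hold for that class. DESeq2 1.42.0 was an alternative. The libraries come from separate animals.

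Members were described in every class, with library values for called members, for each member's highest class and for its largest fold change. From each other list the called genes, up to 3 per direction, were named, or else the most abundant gene (a few of these are printed). The members and lists were chosen with earlier results of these data known. Listed symbols without a row (JUN, ATF7, MAF, KLF2, MAP2K2, MMP10, IL11, HSPA1A, HSPA1B and HSPE1) were not analysed here. CYR61, also listed, is the older symbol of CCN1. The planned sign-flip test between neighbouring classes is not used, because the order was set by the same values.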

Additional observations from a re-analysis of the deposited data

How the results depend on the processing

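No paired analysis was possible because the labels number the controls 1, 2 and 3 and the asthma animals 8, 10 and 11, so no number is shared. With no filter on low counts the genes called were 75 in T and NK cells, 33 in granulocytes, 79 in monocytes, 1 in macrophages, 95 in B cells, 166 in dendritic cells, 1000 in endothelial cells, 466 in fibroblasts and muscle, 55 in mesothelial cells, 2 in epithelial cells and 45 over all cells. With DESeq2 they were 80, 2, 2, 34, 3 and 16 in the first 6 classes, 104 in fibroblasts and muscle, 2 in mesothelial cells, 4 in epithelial cells and 646 over all cells. A mitochondrial maximum of 10% gave 1 in T and NK cells, 48 in fibroblasts and muscle and 0 in mesothelial cells. Clustering with the listed genes gave 2 in mesothelial cells, library sizes without TMM gave 30 over all cells, and keeping the mixed sub-clusters, an alternative added after seeing the data, gave 0 in monocytes, B cells, fibroblasts and muscle, and mesothelial cells. Members called became 2 in B cells, 2 in dendritic cells and 3 in endothelial cells without the filter, 1 in B cells and 0 in endothelial cells with DESeq2, and 0 in endothelial cells without TMM or with the mixed sub-clusters. Leaving out 1 library at a time, genes called ranged from 0 to 3 in T and NK cells, 0 to 1 in macrophages, 0 to 6 in B cells, 0 to 5 in dendritic cells, 32 to 403 in endothelial cells, 0 to 97 in fibroblasts and muscle, 0 to 2 in mesothelial cells and 0 to 11 over all cells, with 0 in monocytes, and members called from 0 to 2 in B cells and 0 to 2 in endothelial cells.

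Log2 values were followed under each setting for chosen members and classes and over all cells, not for all 59 tests. Among those followed, the sign turned for ATF3 in monocytes without the filter (-0.025) and for BATF over all cells with classes weighted equally (0.0069). Signs also turned outside that set: the 59 tests were 49 lower and 10 higher in the main fit, and 46 and 13 without TMM. Leaving out 1 library, 4 of the followed estimates took both signs. In granulocytes they were FOS (-0.0010 to 0.28) and JUNB (-0.084 to 0.48). The others were ATF3 in monocytes (-0.21 to 0.27) and BATF in T and NK cells (-0.32 to 0.0040). Over all 59 tests the split moved further, to 42 lower and 17 higher without control 1. Of 176 log2 values under the other settings, 168 kept their sign and side of the threshold. Without TMM the median of all genes shifted to 0.24 in endothelial cells and to 0.13 over all cells. The order of classes changed most for FOSL1 in asthma libraries alone (Spearman rho 0.568 with the main order) and less for JUND (0.982 at a 10% mitochondrial maximum, 0.964 in asthma libraries) and ATF3 (0.952 in control libraries). Shares of cells with a UMI rose with depth: FOSB in monocytes 98.6% unthinned and 88.3% at 2000 UMIs, JUND in T and NK cells 9.39% and 5.15%, ATF3 in monocytes 85.7% and 58.7%, and BATF in T and NK cells 22.4% and 12.9%. Thinning to 2000 UMIs left too few granulocytes for a value. The causes of these changes were not tested.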

Other observations

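The 2 unnamed clusters also held AP-1 transcripts. The 1047 cells led by PLD4, POU2F2 and CD300H had a FOS level of 2553 ± 655 CPM, and the 446 cells led by CLC, JCHAIN and IGKC had 4130 ± 1009.6 CPM (SD, n = 6 libraries each). Barcodes removed by the filters differed by the reason for removal. Those removed only for too few genes had 7457, 6844 and 7278 CPM of FOS in controls and 5977, 10704 and 5772 CPM in asthma animals 8, 10 and 11, and their FOSL2 level was 319 to 680 CPM. Those with too high a mitochondrial share had 1065, 1038 and 1116 CPM of FOS in controls and 653, 778 and 704 CPM in asthma animals, below the kept cells of the same library in every case. JUND ran the other way in these barcodes, at 58.6 to 97.6 CPM against 10.9 to 17.0 CPM in the kept cells.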
